A study of Mus musculus with 24 samples.

Results

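The genes for calcium, sodium and TRP channels, for the channels and pumps of the calcium store and for store-operated calcium entry were described in alpha and beta cells of the mouse pancreatic islet. Members were matched by symbol, a choice made with earlier results of these data known. The symbols were those of the voltage-gated calcium channel subunits (Cacna, Cacnb and Cacng), the sodium channel subunits (Scn), the Trpc, Trpm and Trpv genes, the ryanodine and inositol trisphosphate receptors (Ryr and Itpr), the calcium pumps (Atp2a and Atp2b), and Stim and Orai. The deposited table held 14027 genes, and 50 matched. They comprised 17 calcium channel genes, 8 sodium channel genes, 11 Trp genes, 4 release channels, 5 pumps and 5 Stim and Orai genes. One of the 11 Trp genes, Trpc4ap, encodes a protein that associates with TRPC4 and is not a channel. How genes were filtered into the table is not given in the sources used here, so a family member outside the table was not analysed here.

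RNA was sequenced from the glucagon-secreting alpha cells and the insulin-secreting beta cells of a triple reporter mouse strain. Islet isolation took place at ZT0, ZT4, ZT8, ZT12, ZT16 or ZT20, where zeitgeber time (ZT) counts the hours from lights on. Each cell type had 2 libraries per time, 12 in all, and no treatment is named. The labels give neither the promoters of the reporters nor the age of the animals, nor how the cells were separated, nor whether both libraries of a group stem from different animals. The p-values below therefore reflect only the spread among these libraries, and that spread may be technical.

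Alpha and beta cells are electrically excitable, and hormone granules are released when calcium enters through voltage-gated channels. Sodium channels and TRP channels carry inward current that shapes the membrane potential. The SERCA pumps (Atp2a) load calcium into the endoplasmic reticulum, inositol trisphosphate and ryanodine receptors let it out, and STIM proteins sense an emptied store and open ORAI channels in the plasma membrane.

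Levels are given in RPKM (reads scaled to gene length and library size, with no prior count added), as mean ± SD over the 12 libraries of a cell type, which includes the time of day. Differences are given as alpha minus beta on the deposited log2 RPKM scale, with the standard error (SE) of the limma fit. A gene was called where its p, adjusted over all 14027 genes by the Benjamini-Hochberg method, was under 0.05 and its fold was at least 2. Library totals ran from 4944982 to 12364190 reads. The alpha and beta marker genes were higher in the labelled cell type in all cases (6 of 6 and 7 of 7 called), and insulin reads were at most 0.506% of an alpha library. In bulk RNA, fewer cells of a type and less RNA per cell cannot be told apart. Markers of other cell types were not equal between the groups: 5 of 6 delta cell markers, 3 of 3 PP cell markers, 4 of 5 stromal markers, 2 of 2 duct markers and 2 of 2 glial markers were called higher in the alpha libraries. The summed delta markers ranged from 2527 to 5194 RPKM in alpha and from 657 to 1437 RPKM in beta libraries, the PP markers from 27826 to 59540 and from 359 to 1730, and the stromal markers from 4.21 to 7.35 and from 0.374 to 1.03. The duct markers ranged from 25.6 to 78.6 RPKM in alpha and from 5.03 to 19.2 in beta libraries, and the glial markers from 0.852 to 3.87 and from 0.171 to 0.894. Of these calls 3 stromal, 1 duct and 1 glial marker stayed below 1 RPKM in both cell types. Of 7 acinar markers 1 was called, higher in beta cells, and of 4 immune and 4 endothelial markers 0. The summed acinar markers ranged from 32.3 to 362 RPKM in alpha and from 47.4 to 344 in beta libraries. In alpha libraries most of the stromal sum was Col1a2 (4.41 RPKM, against 0.0856 in beta libraries). Most of the duct sum there was Spp1 (46.5 RPKM, against 8.86). No marker was at 0 in every library. The part of these cells in the alpha-higher genes below was not tested.

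Itpr1 and calcium channel subunits, most of the called ones below 1 RPKM, stood out on the alpha side. The SERCA pumps, Stim1 and several TRP channels did so on the beta side. Of the 50 members 19 were called higher in alpha cells (38.0%, against 11.2% of all genes) and 9 higher in beta cells (18.0%, against 9.54%), which made 28 called in either direction (56.0%, against 20.7%). All 28 kept their direction at 6 of 6 times, as did 1554 of the 1565 alpha-called and 1335 of the 1338 beta-called genes of the whole table. A further 16 passed the adjusted p without the fold, against 7605 of all 14027 genes. For 25 members all alpha libraries lay on 1 side of all beta libraries (against 26.0% of all genes). The median log2 difference was 0.22 over the members and 0.01 over all genes, and its median size was 1.15 against 0.42. Of the genes called, 10 of 19 higher in alpha cells and 0 of 9 higher in beta cells stayed below 1 RPKM in both cell types. Over all genes these counts were 530 of 1565 and 165 of 1338. Of those 10 genes 0 passed both thresholds on log2(RPKM + 1). That was fixed in advance, since a mean below 1 RPKM cannot give a log2 difference of 1 on that scale. After quantile normalization Trpv2, Cacna2d2, Cacna1i and Ryr3 also lost the call. Of the 18 genes called at 1 RPKM or more, 13 passed both thresholds on log2(RPKM + 1).

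**Figure D1:**
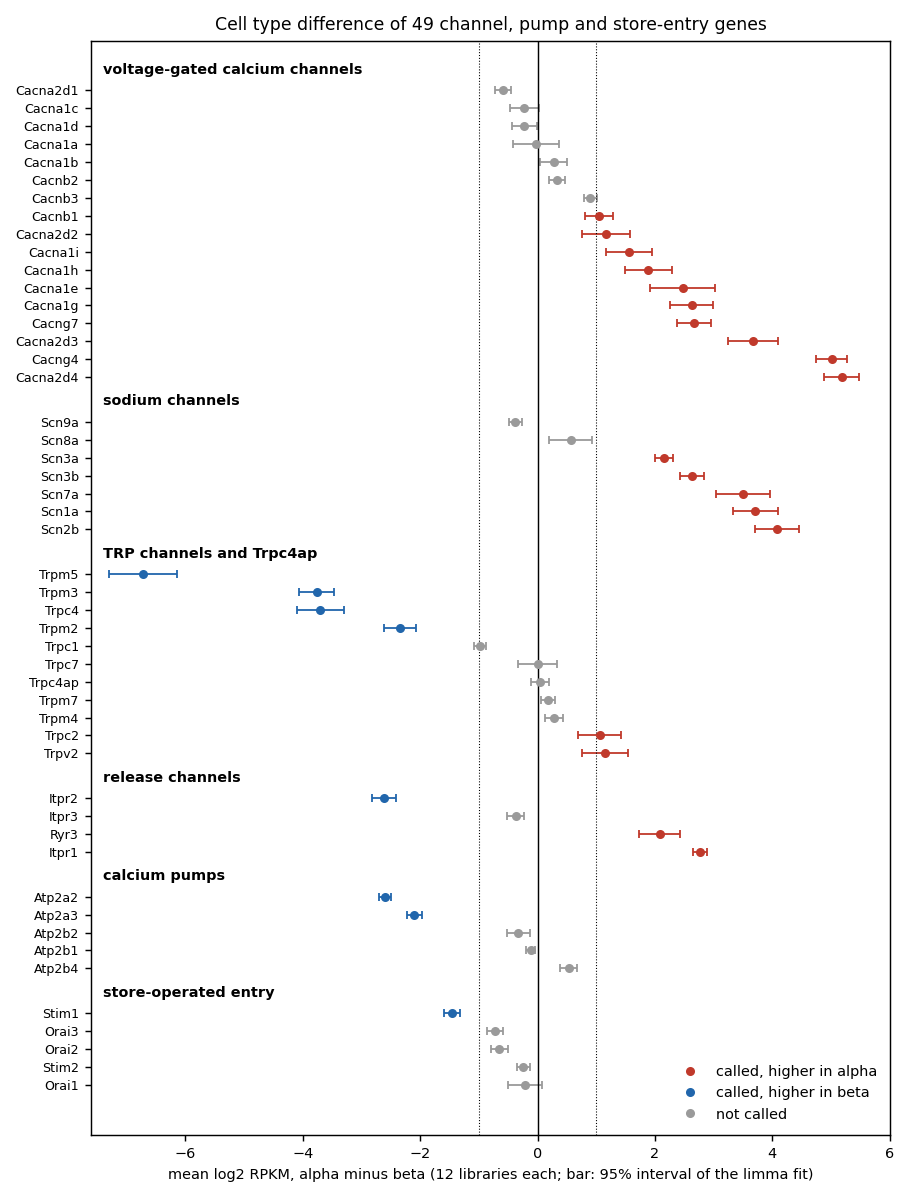
Difference in mean log2 RPKM between alpha and beta cells for 49 of the 50 genes, by family (x axis, log2; each point from 12 alpha and 12 beta libraries, bars the 95% interval, dotted lines a fold of 2). The 10 called calcium channel genes lie to the right of 0, and the 2 SERCA pumps and Stim1 to the left, with Trpm5 at -6.72 as the lowest value.

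Called genes were counted by family, where 11.2% of all genes were called higher in alpha and 9.54% higher in beta cells. Calcium channel genes were called higher in alpha cells in 10 of 17 cases and higher in beta cells in 0. Among the called calcium channel genes, Cacna2d4 and Cacng4 kept the call on log2(RPKM + 1) and the others lost it. For the 6 below 1 RPKM in both cell types that loss was fixed in advance. Sodium channel genes split 5 to 1 of 8, Trp genes 2 to 4 of 11 and release channels 2 to 1 of 4, alpha first. Both SERCA pumps were called higher in beta cells, and 0 of the 3 plasma membrane pumps were called. The 1 store-entry gene called was higher in beta cells. Of the alpha-called genes, 6 calcium channel, 2 sodium channel, 1 Trp and 1 release channel gene stayed below 1 RPKM in both cell types.

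Sequences upstream of the start site are shown for called genes with a RefSeq start. Trpm5, the member with the largest fold, and Atp2a3, a pump at a high level in both cell types, were both higher in beta cells. Scn2b was higher in alpha cells. Each runs 5′ to 3′ along the gene's strand (RefSeq, GRCm38.p6) and stops before the GENCODE start of the gene. Capitals mark matches, on either strand, to any of 7 motifs searched: the E-box CACGTG, the Maf site TGCTGA, the homeodomain core TAATTA, the forkhead site TGTTTAC, the RFX site GTTGCCA, the CCAAT box and the GC box GGGCGG.
Trpm5, chr7:143094643-143094892, minus strand: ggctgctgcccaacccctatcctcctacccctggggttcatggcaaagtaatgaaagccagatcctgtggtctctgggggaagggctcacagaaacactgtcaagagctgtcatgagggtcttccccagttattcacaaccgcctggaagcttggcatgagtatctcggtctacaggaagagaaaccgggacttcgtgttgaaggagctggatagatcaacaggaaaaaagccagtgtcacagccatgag
Atp2a3, chr11:72960919-72961168, plus strand: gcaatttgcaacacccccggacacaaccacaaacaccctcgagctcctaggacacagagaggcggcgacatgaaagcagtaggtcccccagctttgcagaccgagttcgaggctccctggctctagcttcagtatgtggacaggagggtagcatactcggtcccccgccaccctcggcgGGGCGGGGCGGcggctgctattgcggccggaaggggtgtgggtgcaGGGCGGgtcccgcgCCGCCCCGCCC
Scn2b, chr9:45117626-45117781, plus strand: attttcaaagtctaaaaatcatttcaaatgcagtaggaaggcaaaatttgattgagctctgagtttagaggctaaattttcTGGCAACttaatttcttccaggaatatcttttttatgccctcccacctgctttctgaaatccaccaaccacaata
The Trpm5 stretch held 0 matches, with 52.8% G and C. The Atp2a3 stretch held 5 matches to the GC box GGGCGG, with 66.8% G and C. Scn2b had 1 match, to the RFX site on the other strand, whose first letter is base 82 of the stretch as printed, in a stretch with 35.3% G and C. Of the 38 members with a RefSeq start 24 had a GC box within 250 bases upstream (63.2%), as did 5 of 11 with a start called higher in alpha and 5 of 7 called higher in beta cells. Over all 32851 RefSeq starts 32.7% had one, counted per start rather than per gene. The E-box was found for 3 members (6.02% of all starts), the Maf site for 4 (16.1%), the CCAAT box for 11 (33.8%), the RFX site for 2 (3.66%), and the homeodomain core (4.84%) and forkhead site (3.17%) for 0. A match is a run of letters and not a measured binding site.

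The pore-forming calcium channel genes most abundant in the islet cells had similar levels in both types. Cacna1d, an L-type channel pore (chr14:30039939-30491455), had a lowest, median and highest level of 11.1, 15.3 and 26.3 RPKM in alpha and 13.1, 18.9 and 32.0 in beta cells. Its groups overlapped over most of their range, with a log2 difference of -0.23 (95% interval -0.44 to -0.01, adjusted p = 0.051). Cacna1c, the other L-type pore, had 9.21 ± 3.09 RPKM in alpha and 10.6 ± 2.99 in beta cells (log2 difference -0.23, adjusted p = 0.087). Cacna1a, the P/Q-type pore (chr8:84388440-84640246), ran over 3.96, 6.34 and 14.9 RPKM in alpha and 3.90, 6.59 and 16.5 in beta cells. The log2 difference of Cacna1a was -0.03, with a 95% interval from -0.41 to 0.36 (adjusted p = 0.90), and its sign changed with quantile normalization, with a covariate for nuclear RNA and without single libraries. Summed over the 8 measured Cacna1 genes, levels were 40.3 ± 14.4 RPKM in alpha and 42.3 ± 13.6 in beta cells. Cacna1d held 44.8% of that sum in alpha and 49.3% in beta cells, Cacna1c 23.0% and 25.5%, and Cacna1a 19.7% and 18.8%.

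The scarcer pores were higher in alpha cells. Cacna1h, a T-type channel that opens near the resting potential (chr17:25374285-25433783), had 0.492, 0.905 and 1.97 RPKM in alpha and 0.101, 0.278 and 0.591 in beta cells (lowest, median, highest). Only the tails overlapped, with a log2 difference of 1.89 (SE 0.191, adjusted p = 6.6e-09), a fold of 3.70. The call for Cacna1h was lost on log2(RPKM + 1). The other T-type pores and the R-type pore were called below 1 RPKM: Cacna1g at 0.480 against 0.0659 RPKM (6.17-fold) and Cacna1i at 0.375 against 0.107 (2.95-fold), alpha first. Cacna1e, the R-type pore, had 0.343 against 0.0535 RPKM (5.56-fold). Cacna1b, the N-type pore, differed 1.21-fold, at 2.61 and 2.17 RPKM.

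Auxiliary calcium channel subunits carried the larger differences. Cacna2d4, an alpha2delta subunit that escorts the pore to the membrane (chr6:119236526-119352407), had 0.659, 1.04 and 1.44 RPKM in alpha and 0, 0.0108 and 0.0290 in beta cells. It was close to absent from beta cells, with 13 reads over the 12 libraries, 4 of them at 0, against 1364 reads in alpha cells. The fitted log2 difference of Cacna2d4 was 5.18 (SE 0.145, adjusted p = 7.0e-19), which the prior count in the values holds down. Cacna2d1, the abundant alpha2delta gene, went the other way, at 28.2 ± 2.81 RPKM in alpha and 42.7 ± 7.59 in beta cells (log2 difference -0.58, under the fold threshold). Cacna2d3 (0.670 against 0.0415 RPKM, 12.7-fold) and Cacna2d2 (0.534 against 0.209, 2.25-fold) were called higher in alpha cells at low levels.

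Cacng4 gave the widest gap among the calcium channel genes at several RPKM. It had 5.31, 6.72 and 10.7 RPKM in alpha and 0.0998, 0.178 and 0.287 in beta cells (chr11:107732357-107794557). Every alpha library lay far above every beta library, with a log2 difference of 5.01 (SE 0.126, adjusted p = 1.2e-19), a fold of 32.2. Cacng7 had 168 reads in all alpha and 4 in all beta libraries, 8 of which were at 0. Both genes are named for a calcium channel gamma subunit, and their proteins are best known as auxiliary subunits of AMPA-type glutamate receptors.

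Among the cytosolic calcium channel beta subunits, which regulate gating and trafficking of the pore, levels were higher in alpha cells. Cacnb3, the most abundant, had 22.9, 26.2 and 31.3 RPKM in alpha and 12.3, 13.8 and 16.03 in beta cells. Its groups did not overlap, yet the fold of 1.87 (log2 difference 0.90, SE 0.050, adjusted p = 1.6e-13) fell short of 2, and it passed after quantile normalization. Cacnb1 sat just past the threshold, at 4.34 ± 0.668 and 2.10 ± 0.460 RPKM (2.07-fold), and was no longer called after quantile normalization (log2 difference 0.999), on log2(RPKM + 1) (0.79), and without replicate 2 of ZT4 (0.989) or replicate 1 of ZT20 (0.999) in beta cells. Cacnb2 differed 1.26-fold, at 6.83 ± 1.55 and 5.37 ± 1.07 RPKM. The 3 genes summed to 37.4 ± 2.67 RPKM in alpha and 21.5 ± 1.70 in beta cells.

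**Figure D2:**
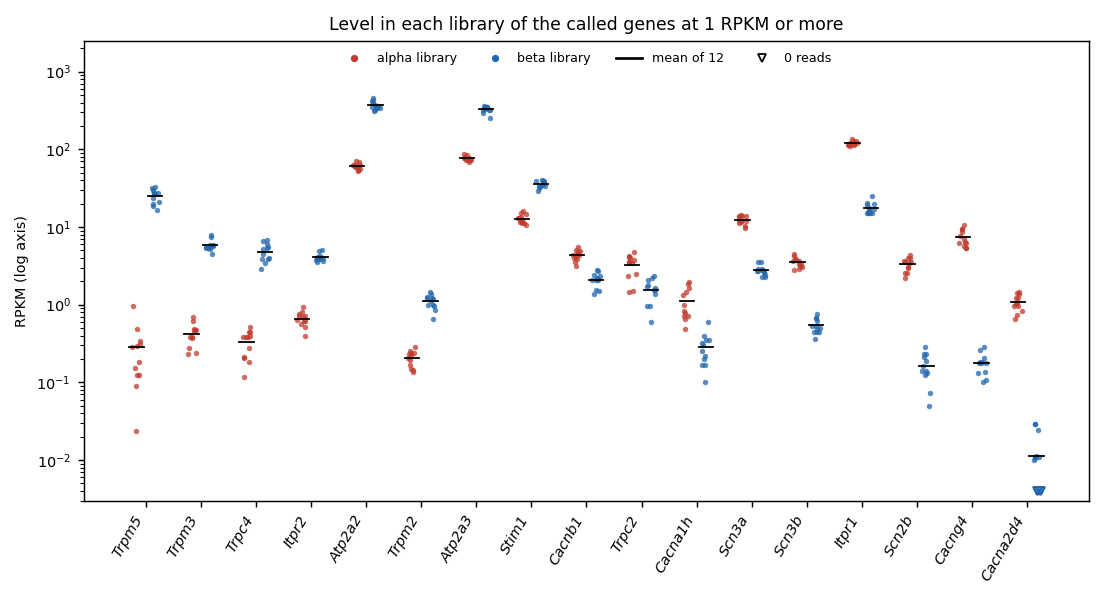
RPKM (log axis) in each of the 24 libraries for 17 of the 18 genes called between cell types with at least 1 RPKM in the higher one, ordered by their log2 difference (points, libraries; black lines, means of 12; open triangles, libraries with 0 reads, drawn at the foot of the axis). Trpm5 to Stim1 are higher in beta cells and Cacnb1 to Cacna2d4 higher in alpha cells; Itpr1, Atp2a2 and Atp2a3 are the genes above 50 RPKM.

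Sodium channels differed in which pore gene led. Scn3a, a pore gene better known from embryonic neurons (chr2:65457118-65567627), had 9.81, 12.2 and 14.2 RPKM in alpha and 2.27, 2.73 and 3.59 in beta cells. All alpha libraries lay above all beta libraries (log2 difference 2.15, SE 0.075, adjusted p = 2.8e-17, 4.45-fold). Scn9a, the pore gene known from pain-sensing neurons, was slightly lower in alpha than in beta cells, at 6.83 ± 0.924 and 8.82 ± 0.552 RPKM (1.30-fold), and its groups overlapped. Scn3a made up 52.5% of the summed pore genes in alpha and 19.9% in beta cells, and Scn9a 29.1% and 63.4%. The sum itself was 23.6 ± 3.42 RPKM in alpha and 13.9 ± 0.727 in beta cells. Scn8a had 3.39 and 2.28 RPKM and was not called. Scn7a was called at 0.862 against 0.0551 RPKM (11.3-fold). Its highest library in each cell type, replicate 1 of ZT16 (1.53 RPKM in alpha and 0.143 in beta cells), also had the highest sum of glial markers there, and the part of such cells was not tested. Scn1a had 371 reads in all alpha and 4 in all beta libraries, 9 of which were at 0.

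Scn2b and Scn3b encode sodium channel beta subunits, which modulate gating and cell adhesion, and both were higher in alpha cells. Scn2b had 2.19, 3.47 and 4.38 RPKM in alpha and 0.0496, 0.151 and 0.281 in beta cells. The gap between the groups was several times the level of the highest beta library, with a log2 difference of 4.08 (SE 0.178, adjusted p = 1.7e-15), a fold of 16.9. Scn3b followed it, at 3.51 ± 0.520 and 0.543 ± 0.118 RPKM (6.20-fold, adjusted p = 8.1e-17).

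TRP channels contained the largest difference of all members. Trpm5, a cation channel opened by intracellular calcium and known from taste cells (chr7:143069153-143094642), had 0.0238, 0.234 and 0.962 RPKM in alpha and 16.5, 26.9 and 32.6 in beta cells. Every beta library was far above every alpha library. The log2 difference was -6.72 (SE 0.277, adjusted p = 2.7e-15), a fold of 106. The alpha library with the highest Trpm5, replicate 1 of ZT4, also had the highest share of insulin reads. Over the means, the Trpm5 level in alpha cells was 1.11% of that in beta cells, while Ins1 was at 0.631% and Ins2 at 0.670%. The part of beta cell RNA in this remainder was not tested.

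Trpm3, Trpc4 and Trpm2 were also higher in beta cells. Trpm3, a channel activated by the steroid pregnenolone sulphate (chr19:22139046-22995410), had 0.230, 0.416 and 0.693 RPKM in alpha and 4.45, 5.62 and 7.80 in beta cells. Its groups were far apart (log2 difference -3.77, SE 0.147, adjusted p = 2.3e-16, 13.6-fold). Trpm3 is the host gene of a microRNA, shown here with its seed (bases 2 to 8) in capitals because it lies within the gene at chr19:22750610-22750631. The microRNA itself was not measured.
mmu-miR-204-5p: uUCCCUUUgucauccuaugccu
Trpc4, a channel opened downstream of receptors coupled to phospholipase C (chr3:54156035-54318471), had 0.119, 0.382 and 0.521 RPKM in alpha and 2.87, 4.84 and 6.76 in beta cells, again with no overlap. The log2 difference of Trpc4 was -3.70 (SE 0.192, adjusted p = 4.5e-14), 13.0-fold. Trpm2, a channel gated by ADP-ribose, stood at 0.206 ± 0.0475 and 1.11 ± 0.226 RPKM (5.08-fold), a call lost on log2(RPKM + 1).

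The remaining Trp genes were closer. Trpc1 had 6.58, 7.69 and 8.60 RPKM in alpha and 13.2, 14.5 and 16.6 in beta cells. Its libraries did not overlap, and its fold of 1.98 (adjusted p = 2.2e-14) lay just under 2, as that of Trpc2 lay just over. The row named Trpc2 had 3.27 ± 1.09 and 1.56 ± 0.524 RPKM (log2 difference 1.06, 2.08-fold), with overlapping groups. Its gene identifier belongs in the annotation to a readthrough transcript that shares 42.3% of its exon bases with Xndc1 and 49.4% with Trpc2, so the gene behind these reads is uncertain. The Trpc2 call was lost on log2(RPKM + 1) (log2 difference 0.72), after quantile normalization (0.95), and without replicate 1 of ZT4 in alpha cells (0.97), replicate 1 of ZT0 in beta cells (0.99) or replicate 2 of ZT4 in beta cells (0.96). Trpm7, a channel fused to a kinase, had 7.40 and 6.53 RPKM, and Trpm4, a calcium-activated channel like Trpm5, had 3.89 and 3.18. Trpc7 (0.777 and 0.757 RPKM) and Trpc4ap (13.2 and 13.0) did not differ beyond their spread. Trpv2 was called at 0.206 against 0.0750 RPKM (2.21-fold).

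Itpr1, the main release channel, and the pumps that fill the store differed in opposite directions. Itpr1, an inositol trisphosphate receptor (chr6:108213096-108551109), had 109.5, 116.5 and 135 RPKM in alpha and 15.0, 17.0 and 24.8 in beta cells. The lowest alpha library was several times the highest beta library (log2 difference 2.77, SE 0.059, adjusted p = 1.0e-20, 6.82-fold). Itpr2 was the reverse (chr6:146108299-146502223), at 0.397, 0.667 and 0.920 RPKM in alpha and 3.56, 3.98 and 4.98 in beta cells (log2 difference -2.62, SE 0.098, adjusted p = 9.7e-17, 6.15-fold). Itpr3 had 12.7 ± 1.54 and 16.5 ± 2.42 RPKM (1.30-fold), with overlap. Together the 3 receptors summed to 132 ± 7.86 RPKM in alpha and 38.2 ± 4.38 in beta cells. Itpr1 was 89.9% of that sum in alpha and 46.0% in beta cells, where Itpr3 held 43.2% and Itpr2 10.8%. Ryr3, a ryanodine receptor, was called at 0.156 against 0.0304 RPKM (4.22-fold).

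The SERCA pumps were among the most abundant members and stood higher in beta cells. Atp2a2, the widely expressed SERCA gene (chr5:122453513-122502225), had 52.9, 60.3 and 70.4 RPKM in alpha and 308.7, 358.7 and 453 in beta cells. The groups were far apart, with a log2 difference of -2.60 (SE 0.052, adjusted p = 3.7e-21), 6.07-fold. Atp2a3 had 68.5, 75.9 and 85.9 RPKM in alpha and 256, 335 and 359 in beta cells. It too had no overlap (log2 difference -2.10, SE 0.059, adjusted p = 6.7e-19, 4.28-fold). The 2 pumps summed to 138 ± 8.47 RPKM in alpha and 700.4 ± 51.3 in beta cells. Atp2a2 held 44.3 ± 2.27% of that sum in alpha and 53.0 ± 4.07% in beta cells. On average Atp2a3 thus led in alpha and Atp2a2 in beta cells.

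Plasma membrane pumps, which export calcium from the cell, were close in sum, at 54.3 ± 5.88 RPKM in alpha and 53.7 ± 2.94 in beta cells. Atp2b1, the main one, had 34.4 and 37.3 RPKM (log2 difference -0.12, 95% interval -0.20 to -0.04). Atp2b4 was higher in alpha cells (14.8 and 10.1 RPKM, 1.44-fold) and Atp2b2 higher in beta cells (5.05 and 6.33, 1.25-fold). All 3 passed the adjusted p and none the fold.

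Of the 5 store-entry genes 1 was called higher in beta cells and 3 more passed the adjusted p there without the fold. Stim1, the calcium sensor of the store (chr7:102267806-102437319), had 10.6, 12.4 and 16.2 RPKM in alpha and 29.1, 34.8 and 39.7 in beta cells. No alpha library reached the lowest beta library (log2 difference -1.47, SE 0.065, adjusted p = 2.7e-15, 2.76-fold). Its relative Stim2 differed 1.18-fold, at 7.78 ± 0.429 and 9.29 ± 1.38 RPKM. Orai3, the most abundant Orai pore gene, had 9.55, 11.9 and 15.2 RPKM in alpha and 16.9, 19.5 and 25.7 in beta cells, without overlap and below the fold threshold (1.65-fold). Orai2 (2.89 and 4.53 RPKM, 1.57-fold) went the same way, and Orai1 (1.68 and 1.90 RPKM) did not pass the test (log2 difference -0.21, 95% interval -0.50 to 0.08).

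**Figure D3:**
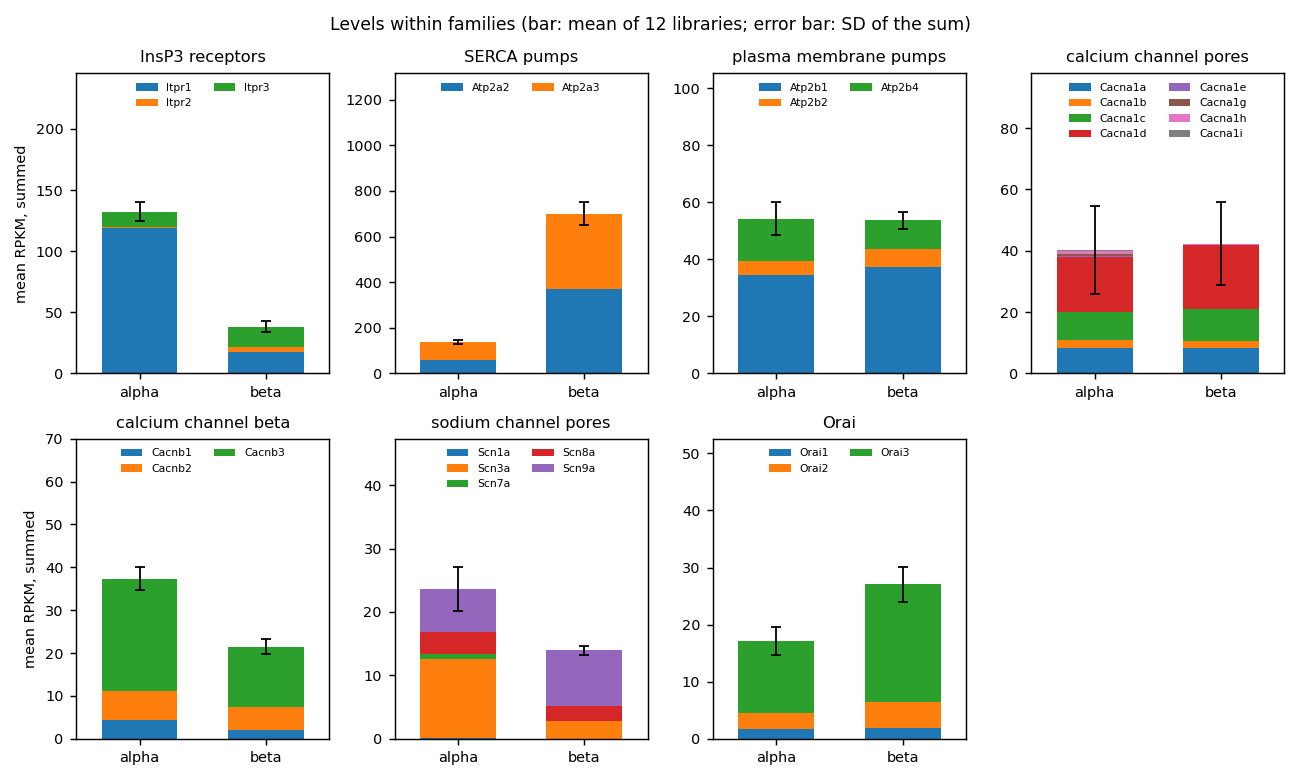
Mean RPKM of the members of 7 gene families, stacked, in alpha and beta cells (bars, means of 12 libraries; error bars, SD of the sum over libraries; each panel has its own axis from 0). InsP3 receptors sum to 132 RPKM in alpha and 38.2 in beta cells and SERCA pumps to 138 and 700.4, while the calcium channel pores (40.3 and 42.3) and plasma membrane pumps (54.3 and 53.7) are near equal.

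Daily rhythms were sought with a cosine of 24 h in each cell type and called at an adjusted p under 0.05 (limma F-test). In alpha cells 5 of 50 members were called (against 9.66% of all genes), and in beta cells 5 of 50 (against 16%), so the share of rhythmic members was near or below that of genes at large. The alpha set was made up of calcium channel genes: Cacna1d, Cacna1a, Cacna1h, Cacna2d2 and Cacnb2. The beta set held Cacna1d, Cacna2d1, Stim2, Scn3a and Atp2a2. Cacna1d was the member called in both. Both cell types shared 1 estimate of the spread per gene, so spread at low levels in 1 cell type weakens the test in the other. Trpm5, with 1 to 86 reads per alpha library, averaged 31.5 RPKM at ZT4 and 17.6 at ZT16 in beta cells. It was not called there (adjusted p = 0.57). At an unadjusted p under 0.05 there were 18 members in alpha and 15 in beta cells, against 4173 and 4812 of all 14027 genes. These counts leaned on single libraries: without replicate 1 of ZT8 in alpha cells 0 were called in alpha cells, and without replicate 1 of ZT4 in alpha cells 12. In beta cells 1 was called without either ZT16 library and 9 without either ZT0 library of beta cells.

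Cacna1d peaked late in the cycle in both cell types. In alpha cells its 2 libraries (replicate 1, then replicate 2) had 12.5 and 22.3 RPKM at ZT0, 15.8 and 13.2 at ZT4, 11.1 and 12.2 at ZT8, 14.9 and 14.5 at ZT12, 26.2 and 24.2 at ZT16, and 26.3 and 20.6 at ZT20. In beta cells Cacna1d had 14.0 and 27.7, 18.4 and 13.1, 16.9 and 14.7, 19.3 and 18.3, 32.0 and 29.7, and 20.4 and 24.3 RPKM at the same times. ZT16 and ZT20 were high, ZT8 low in alpha cells, and the ZT0 replicates disagreed in both cell types. The fitted range from trough to peak was 2.08-fold in alpha (adjusted p = 0.013, peak at 18.7 ± 0.8 h, SE) and 1.82-fold in beta cells (adjusted p = 0.027, peak at 17.5 ± 1.0 h). Cacna1a ranged 2.89-fold in alpha cells (adjusted p = 0.042, peak at 19.3 h) and 2.41-fold in beta cells (adjusted p = 0.071). Cacna1h (2.74-fold, adjusted p = 0.049), Cacna2d2 (2.89-fold, 0.027) and Cacnb2 (1.60-fold, 0.033) completed the alpha set. Cacna2d2 averaged only 0.534 RPKM in alpha cells. The alpha cell call was lost in 20 of 34 alternatives for Cacna1h and in 13 of 35 for Cacna1a. It was lost in 9 of 35 for Cacnb2, 7 of 34 for Cacna2d2 and 3 of 35 for Cacna1d. The fitted peaks of all 8 Cacna1 genes fell between ZT16 and ZT22 in alpha cells and those of 7 of 8 did so in beta cells, whether or not they passed the test. In alpha cells the SE of that peak was 13.3 h for Cacna1g and 3.5 h for Cacna1e, so a fitted peak in the window need not mark a rhythm. Of all 14027 genes, 4730 in alpha and 4778 in beta cells had a fitted peak in that window.

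The nuclear RNAs Malat1 and Neat1 moved with these genes. Malat1 averaged 2989 RPKM at ZT16 and 1216 at ZT8 in alpha cells. The same averages were 2312 and 856 RPKM in beta cells. Between the ZT0 replicates, Cacna1a was 3.28 times higher in replicate 2 in alpha and 3.23 times higher in beta cells, while Malat1 went from 1476 to 2640 RPKM in alpha and from 903 to 2207 in beta cells, and Neat1 from 2.71 to 8.70 RPKM and from 5.36 to 27.6. In a fit with the mean log2 level of Malat1 and Neat1 as a covariate, 0 members were called in alpha and 3 in beta cells, and adjusted p-values were 0.24 for Cacna1d and 0.62 for Cacna1a in alpha cells. Since the covariate itself varied with time, that fit does not separate the time of day from the content of nuclear RNA. Without replicate 2 of ZT0 in both cell types, 10 members were called in each.

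**Figure D4:**
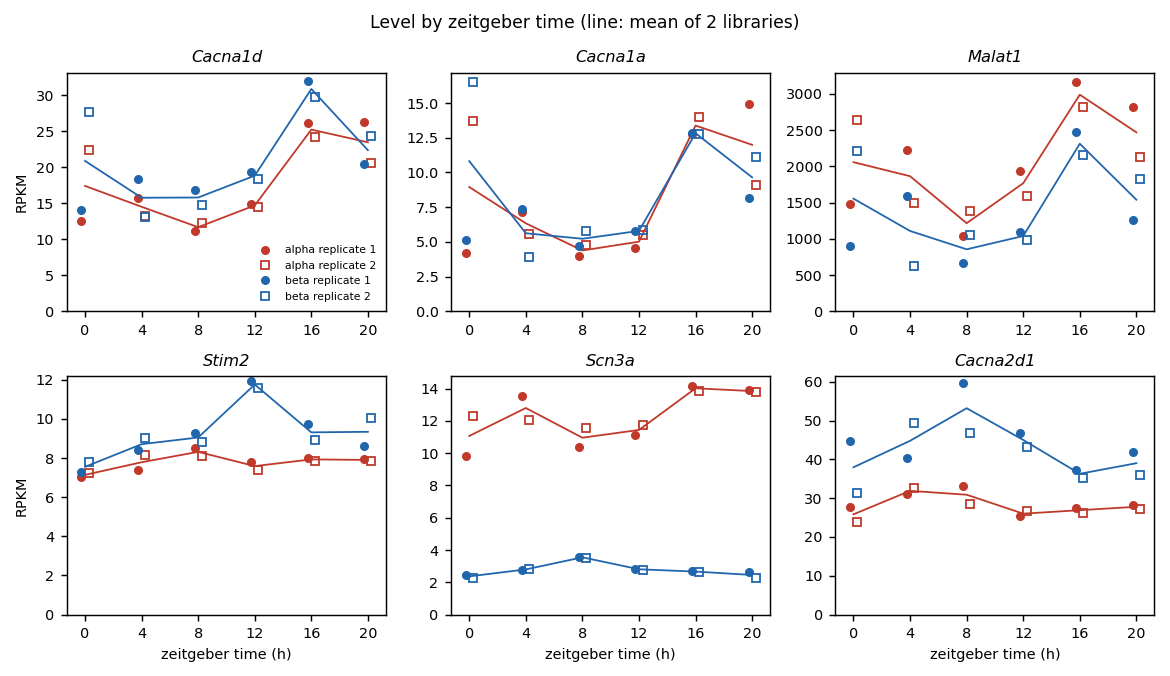
RPKM (linear axis from 0) by zeitgeber time for 5 of the rhythmic genes and for the nuclear RNA Malat1 (filled points, replicate 1; open squares, replicate 2; lines, means of 2 libraries; red alpha, blue beta). Cacna1d and Cacna1a follow the shape of Malat1, with a replicate gap at ZT0, while Stim2 peaks at ZT12 in beta cells with its 2 libraries at 11.9 and 11.6.

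The beta cell rhythms outside the calcium channel pores were smaller and had other phases. Stim2 rose from 7.30 and 7.80 RPKM at ZT0 to 11.9 and 11.6 at ZT12 in beta cells, with 8.39 and 9.02 at ZT4, 9.29 and 8.81 at ZT8, 9.72 and 8.90 at ZT16, and 8.63 and 10.1 at ZT20. Both ZT12 libraries lay above all others. The fitted range of Stim2 was 1.37-fold with a peak at 12.7 ± 0.9 h (adjusted p = 0.015), and with the covariate the adjusted p was also 0.015. The Stim2 call was lost without replicate 1 (adjusted p = 0.058) or replicate 2 (0.053) of ZT12 in beta cells, and with each cell type fitted alone (0.072). Scn3a ranged 1.39-fold in beta cells with a peak at 8.8 ± 1.0 h (adjusted p = 0.032), from 2.44 and 2.29 RPKM at ZT0 to 3.59 and 3.50 at ZT8. Cacna2d1 (1.40-fold, peak at 7.9 h, adjusted p = 0.041) and Atp2a2 (1.30-fold, peak at 4.5 h, adjusted p = 0.047) were nearest the threshold. The Atp2a2 call was lost in 19 of 35 alternatives, with an adjusted p of 0.68 after quantile normalization. Without single libraries the adjusted p reached 0.17 for Cacna2d1, 0.14 for Atp2a2, 0.11 for Scn3a and 0.095 for Cacna1d in beta cells. Apart from Stim2, the beta cell calls were lost with the covariate (adjusted p = 0.057 for Scn3a, 0.10 for Atp2a2, 0.32 for Cacna1d and 0.45 for Cacna2d1). With each cell type fitted alone in limma, these calls were lost as well. The adjusted p was then 0.063 for Cacna1d, 0.087 for Scn3a, and 0.11 for both Atp2a2 and Cacna2d1.

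No member's rhythm differed between the cell types by the test of the difference itself (0 of 50 at a limma adjusted p under 0.05, against 0.0713% of all genes), and voom on recovered reads also called 0. Before adjustment 3 members had a limma p under 0.05, with adjusted p-values of 0.22 for Scn3a, 0.30 for Trpc4 and 0.59 for Scn3b. Trpc4 in beta cells stood at 6.52 and 6.76 RPKM at ZT12 and at 3.87 and 3.45 at ZT20, with a fitted peak at 8.9 h, and in alpha cells the fitted peak was at 19.1 h. A gene called rhythmic in 1 cell type is therefore not shown to differ in the other.

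Partner genes of the calcium pathway were drawn from 6 lists of 118 genes, of which 80 were measured. Of these 13 were called higher in alpha cells (against 11.2% of all genes) and 11 higher in beta cells (against 9.54%), with a median log2 difference of -0.02. The counts of the lists are therefore given as a description. Among 14 regulators of voltage-gated calcium channels, sodium channel partners and sodium leak or pacemaker channels, 6 were called higher in alpha and 1 higher in beta cells. Fgf14, an intracellular partner of sodium channels, had 2.88 ± 0.584 and 0.131 ± 0.0551 RPKM (19.2-fold). Stac2, which binds L-type channels, had 1.02 and 0.0420 RPKM (10.4-fold), and Fgf12 differed 2.26-fold. Hcn4, a pacemaker cation channel, was higher in beta cells (0.994 against 7.61 RPKM, 7.52-fold).

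Among 14 store proteins and regulators of store-operated entry, 1 was called higher in alpha and 4 higher in beta cells. Fkbp1b, a protein that binds ryanodine receptors, had 1.20 ± 0.693 and 81.6 ± 17.2 RPKM (66.9-fold). Saraf (listed as Tmem66), which turns off store-operated entry, was 2.29-fold and Calr, a calcium-binding chaperone of the endoplasmic reticulum, 2.05-fold higher in beta cells. Of 5 exchangers and Golgi pumps 1 was called in alpha and 2 in beta cells, where the Golgi pump Atp2c1 and the exchanger Slc24a2 were each 3.21-fold higher. Of 13 other calcium-permeable channels 1 was called in each direction, with the endolysosomal channel Mcoln3 28.3-fold higher in beta cells (0.0395 against 2.53 RPKM). Of 9 genes listed for mitochondrial calcium uptake and exchange 1, Ccdc109b, was called, 4.01-fold higher in alpha cells. Of 25 calcium-binding and calmodulin-dependent genes 3 were called in each direction, led by the buffer Calb1 in alpha cells (35.2 ± 6.95 against 2.44 ± 0.744 RPKM, 14.6-fold) and by the kinase inhibitor Camk2n1 in beta cells (2.59-fold). Camk2d was 2.19-fold higher in alpha cells, and Camkk2 (2.40-fold) and Camk1g (2.15-fold) were higher in beta cells.

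Exons of several members overlap a gene on the opposite strand. The libraries were made with a stranded kit, and the strand setting of the counting is not given in the sources used here. Reads of the partners could thus be mixed for Trpm5 with Tssc4 (3.44% of exon bases), Cacna1d with Chdh (4.67%), Ryr3 with Aven (4.83%) and Cacna1h with Tpsg1 (1.62%). Further members with such an overlap include Cacnb2 with Gm10849 (4.67%), Cacna1a with Gm16183 (3.81%) and Itpr3 with Itpr3os (2.58%).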

How the data were processed

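Per the labels' protocols, stranded libraries were made from total RNA of alpha and beta cells after depletion of ribosomal RNA. STAR, edgeR and the build mm10 appear in the submitters' processing notes without versions; for annotation, strand setting and gene filter, nothing is given in the sources used here. This table holds log2 values as the authors deposited them, which proved to be log2 RPKM with a prior count (mean 2.0 over libraries). Whole reads were recovered from their steps for all 14027 genes (100.0% of values, largest deviation 8.1e-08).

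The deposited log2 values were tested with limma 3.58.1 in R 4.3.3 (trend and robust prior variance, Benjamini-Hochberg adjustment over 14027 genes, no further filter), and the scripts were checked on simulated data. Cell types were compared over 24 libraries with time as a factor. Rhythms were 2 cosine terms per cell type in 1 model, tested by F-tests. Alternatives were other pseudocounts, a filter, quantile normalization, other variance and time models, a replicate block and leaving out each library. Added after seeing the data were voom on the recovered reads, a Malat1 and Neat1 covariate, the block within time and leaving out replicate 2 of ZT0. The planned count models were not run on log2 values.

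No group held 2 libraries alike within sampling noise (chi-square 2.57 to 48.6 per gene).

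Members and lists were chosen with earlier results of these data known. Values over libraries are given for members called at 1 RPKM or more, for the top 2 levels of each family and for rhythmic members. Members called below 1 RPKM are given by fold and mean level only, or by reads where beta cells had 4. Of the partner lists up to 3 called genes per direction at 1 RPKM or more are named. Cacna1b, Cacna1c, Scn8a, Trpm4, Trpm7, Trpc7, Atp2b1, Atp2b2, Atp2b4, Orai1 and Orai2 were named beyond that rule. Gene positions are those of GENCODE on GRCm38, which mm10 names, and 49 of the 50 symbols were equal to it. One member enters the counts and is not reported here by its values.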

Additional observations from a re-analysis of the deposited data

How the results depend on the processing

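Over 36 alternatives for the cell type difference and 35 for the rhythms, 13 of the 28 members called between cell types kept their call in each alternative run for them and 15 lost it in 1 or more. For 10 of the 15, with means below 1 RPKM in both cell types, the loss on log2(RPKM + 1) was fixed in advance. Scn2b and Cacna2d4, among the 13, were not tested under the filter on low values. The 19 members higher in alpha cells became 6 on log2(RPKM + 1) and 6 when only genes whose log2 RPKM averaged above 0 were tested, which leaves fewer members, and ranged from 17 to 19 when 1 library was left out. The 9 higher in beta cells became 18 without the fold threshold and stayed at 9 without any 1 library. The 5 rhythmic in alpha cells became 8 on log2(RPKM + 1), 3 with that filter, 11 after quantile normalization, 3 without trend and robust estimation, 3 with time as a factor, 8 with voom on recovered reads, 10 without replicate 2 of ZT0 in both cell types and 0 with the Malat1 and Neat1 covariate, and ranged from 0 to 12 without 1 library. The 5 rhythmic in beta cells became 2 with time as a factor, 2 with each cell type fitted alone, 9 with voom, 10 without replicate 2 of ZT0 and 3 with the covariate, and ranged from 1 to 9. The 2 called with each cell type fitted alone were other members, as all 5 lost the call there. The count for the difference of rhythm was 0 in all 34 of its alternatives. The log2 difference of Cacna1a turned to 0.029 after quantile normalization, to 0.23 with the covariate and ranged from -0.113 to 0.0876 without 1 library. With the replicate block the counts were 19, 9, 4 and 4 for alpha, beta and the 2 rhythms, and 19 and 9 with the block within time. Under the block the adjusted p of the rhythm was 0.057 for Cacna1h in alpha and 0.056 for Atp2a2 in beta cells, so both missed the threshold. The labels do not pair libraries by replicate number. The deviations of same-numbered alpha and beta libraries correlated positively at each of the 6 times, at 0.0413 to 0.647. Whether such libraries share animals or sessions was not tested, so a rhythm seen in both cell types may not be independent. Apart from the filter and the loss of genes below 1 RPKM on log2(RPKM + 1), the cause of these shifts was not tested. Depth limits the genes below 1 RPKM, such as Scn1a and Cacng7 with 4 reads in all beta libraries.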
